A study of Mus musculus with 4 samples.

Results

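Metallothioneins and zinc transporters were followed in whole mouse islets held at low or high glucose. The 9 genes described here, *Mt1*, *Mt2*, *Slc30a1*, *Slc30a5*, *Slc30a7*, *Slc39a6*, *Slc39a7*, *Slc39a10* and *Slc39a14*, were listed by symbol, with earlier results of these data known, from 24157 genes in the deposited table. They occupy 12 entries of that table, and where a gene had several entries the most abundant one was used. The islets were taken from adult male mice (strain C57bl6, age 3 months), pooled, rested overnight in 11 mM glucose and starved for 2 h in 2.8 mM glucose. They were then held at 2.8 mM glucose (LoGlu, 2 libraries) or at 16.8 mM glucose (HiGlu, 2 libraries), with total RNA of 100 islets in each library. The series design and the methods of the study give 12 h for both groups, but on the sample labels the LoGlu libraries had 2 h and the HiGlu libraries 12 h. If the labels are right, time and glucose concentration cannot be told apart. The libraries of each group came from the same pool of islets, so every p-value measures only the spread between these libraries, which may be technical.

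Zinc is stored with insulin in the secretory granules of beta cells and leaves the cell with the hormone. Metallothioneins are small cysteine-rich proteins that bind zinc and copper in the cytosol. SLC30 proteins (ZnT) move zinc out of the cytosol, across the plasma membrane or into organelles, and SLC39 proteins (ZIP) move it into the cytosol. The zinc-sensing factor MTF1 binds metal response elements (MRE) upstream of metallothionein genes and of *Slc30a1*.

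The 2 abundant metallothioneins and *Slc30a1*, the zinc exporter of the plasma membrane, were lower at 16.8 mM than at 2.8 mM glucose, and *Slc39a6*, a zinc importer, was slightly higher. *Slc30a5*, which loads zinc into the early secretory pathway, and *Slc39a7*, which releases zinc from the endoplasmic reticulum, did not pass the test. Values are RPKM, that is reads scaled by library depth and by length, where the length is the whole genomic span with its introns, and changes are differences of log2(RPKM + 0.5), HiGlu minus LoGlu, from limma with Benjamini-Hochberg adjustment over all transcripts tested. Of the 9 genes, 6 reached the mean of at least 1 RPKM that the test required. Of these, 4 passed an adjusted p of 0.05, 1 higher and 3 lower, where 33.4% of the 7867 transcripts tested passed, 10.7% higher and 22.8% lower at 16.8 mM. The median log2 fold change was -0.40 over the 6 tested genes and -0.11 over all transcripts tested. The groups did not overlap for 5 of the 6 tested genes, against 70.4% of all transcripts tested, and for 6 of all 9 genes, against 60.2% of all transcripts above 0. With no minimum on RPKM 1 of the 9 passed, *Slc30a1* (adjusted p = 0.0408), against 9.13% of all transcripts, and with voom on reconstructed reads 5 of the 9 passed, against 42.6%.

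**Figure D1:**
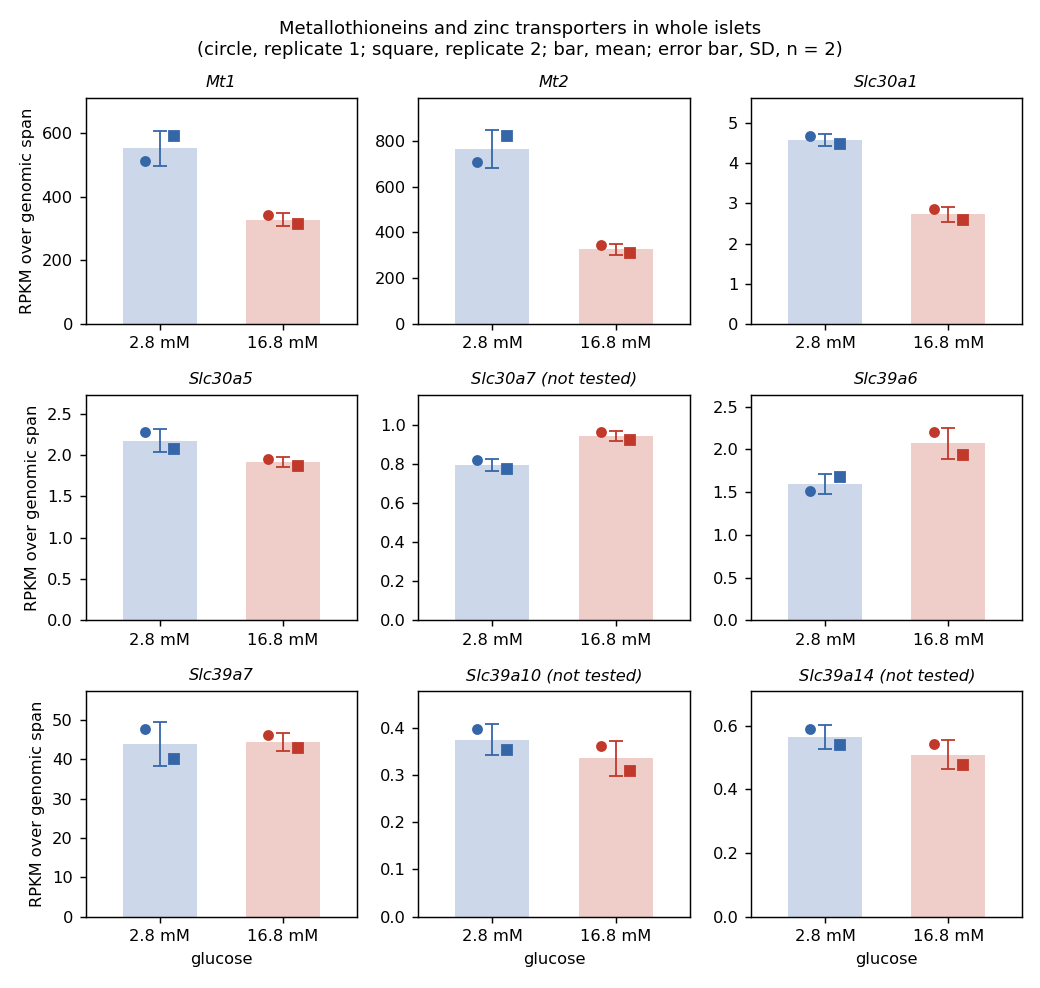
RPKM over the genomic span (vertical axes, each from 0) of the 9 genes in islets at 2.8 mM glucose (blue) and 16.8 mM glucose (red). Circles are replicate 1, squares replicate 2, bars the mean and error bars the SD of n = 2 libraries. *Mt1*, *Mt2* and *Slc30a1* are lower in both libraries at 16.8 mM, and *Slc39a7* overlaps between the groups.

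*Mt2* (chromosome 8, 96696518 to 96697467, mm9, + strand, 3 exons) is a general metallothionein that is induced by zinc, other metals and glucocorticoids in many tissues. It stood at 708 and 824 RPKM in the LoGlu libraries and at 344 and 308 RPKM in the HiGlu libraries. Both HiGlu libraries lay below both LoGlu libraries, and the distance between the groups was much larger than that between replicates. The mean went from 765.8 ± 81.9 to 325.9 ± 25 RPKM (SD, n = 2 libraries each), a ratio of 0.426. The log2 fold change was -1.23 (SE 0.14, 95% interval -1.56 to -0.90, adjusted p = 0.00132). These values rested on 39273 and 40618 reads at 2.8 mM and on 19795 and 14862 reads at 16.8 mM, reconstructed from RPKM, span and depth.

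*Mt1* (chromosome 8, 96702989 to 96704225, + strand, 3 exons), its neighbour and near functional equivalent, stood at 513 and 592 RPKM in the LoGlu libraries and at 343 and 313 RPKM in the HiGlu libraries. Here too both HiGlu libraries were lower than both LoGlu libraries. The mean went from 552.7 ± 55.5 to 328.2 ± 21.6 RPKM (SD, n = 2), and the log2 fold change was -0.75 (SE 0.14, 95% interval -1.07 to -0.43, adjusted p = 0.0073). The call for *Mt1* was lost after quantile normalization of the libraries (log2 fold change -0.33, adjusted p = 0.134), whereas *Mt2* kept it (-0.77, adjusted p = 0.0145). The transcripts of *Mt1* and *Mt2* share 0 of 516 stretches of 25 bases, so reads of that length or longer that match exactly are not split between them.

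The balance between the 2 genes also differed. The ratio of *Mt2* to *Mt1* RPKM was 1.38 and 1.39 at 2.8 mM, and 1.0 and 0.985 at 16.8 mM, with close agreement inside each group. The combined share of *Mt1* and *Mt2* in all reads was 0.131% and 0.151% in the LoGlu libraries, and 0.0751% and 0.0679% in the HiGlu libraries. By RPKM pooled over the 4 libraries *Mt2* and *Mt1* were 16th and 17th of 24012 gene symbols. That order came from the libraries at 2.8 mM, where *Mt2* lay above *Mt1* in both. At 16.8 mM both genes stood at the same level within the spread of the replicates. Since RNA of whole islets was measured, fewer cells of a type and less RNA per cell cannot be told apart.

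Because these genes are known targets of MTF1, the 250 bases before the annotated starts of *Mt1*, *Mt2* and *Slc30a1* are shown, taken from RefSeq and placed on mm9 by exact match. All are written 5′ to 3′ on the strand of the gene, here the + strand. Capitals mark matches to the MRE core, searched as TGCACNC or TGCGCNC on both strands.
Mt1 chr8:96702739-96702988: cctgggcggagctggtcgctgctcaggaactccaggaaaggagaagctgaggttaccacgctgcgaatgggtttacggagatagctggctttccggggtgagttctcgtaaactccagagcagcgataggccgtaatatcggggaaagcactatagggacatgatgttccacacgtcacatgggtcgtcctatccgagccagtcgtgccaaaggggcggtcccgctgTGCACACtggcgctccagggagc
Mt2 chr8:96696268-96696517: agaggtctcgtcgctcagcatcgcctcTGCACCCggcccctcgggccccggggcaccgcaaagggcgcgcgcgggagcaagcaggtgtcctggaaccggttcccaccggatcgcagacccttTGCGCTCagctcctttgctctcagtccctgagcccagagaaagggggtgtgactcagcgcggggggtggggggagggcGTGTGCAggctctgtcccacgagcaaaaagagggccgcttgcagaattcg
Slc30a1 chr1:193730410-193730659: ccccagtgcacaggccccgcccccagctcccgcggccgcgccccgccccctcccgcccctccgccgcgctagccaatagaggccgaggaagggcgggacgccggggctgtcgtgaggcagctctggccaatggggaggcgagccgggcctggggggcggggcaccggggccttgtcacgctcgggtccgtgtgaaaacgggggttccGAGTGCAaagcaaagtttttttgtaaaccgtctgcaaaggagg

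*Mt2* held 3 MRE matches, which begin at -223, -128 and -50 from its start, a number reached or passed by 1.28% of 32544 distinct promoter windows of the same length. *Mt1* held 1, at -23, and *Slc30a1* held 1, at -43, and 21.5% of all windows held at least 1. *Mt1* has a second annotated start 122 bases downstream, at position 96703111, and the 250 bases before that start hold 5 matches, a number reached in 0.083% of windows. The windows of both starts overlap, and the match of the first window is 1 of the 5. A start inside the transcript was searched in this way for *Mt1* alone. The antioxidant response element core, searched as TGACNNNGC on both strands, matched once in *Mt2* (from -79) and once in *Slc30a1* (from -82), against 10.2% of windows with at least 1 match. *Slc30a5*, which did not pass the test, also held 1 MRE match, at -48. The windows of *Slc30a7*, *Slc39a7* and *Slc39a10* held 0. A match describes letters only, and binding was not measured. A window was read for 7 of the 9 genes. None was read for *Slc39a14* or for *Slc39a6*, the only gene of the 9 called higher, so the windows do not cover both directions of change.

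**Figure D2:**
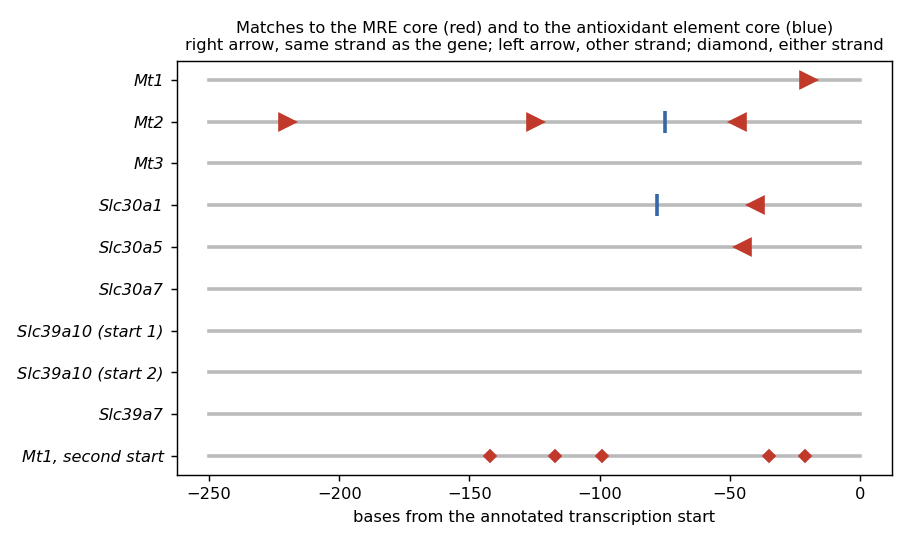
Positions of matches to the MRE core (red) and the antioxidant response element core (blue) in the 250 bases before each start, with bases from the start on the horizontal axis and 1 line for each window. *Mt2* has 3 MRE matches and the second *Mt1* start has 5, while *Mt3*, *Slc30a7*, *Slc39a7* and *Slc39a10* have none in their windows.

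Among the exporters, *Slc30a1* (chromosome 1, 193730646 to 193737126, + strand, 2 exons) stood at 4.69 and 4.48 RPKM in the LoGlu libraries and at 2.86 and 2.59 RPKM in the HiGlu libraries. The groups were well apart and the replicates close. The mean went from 4.583 ± 0.147 to 2.725 ± 0.195 RPKM (SD, n = 2), and the log2 fold change was -0.66 (SE 0.10, 95% interval -0.89 to -0.43, adjusted p = 0.00337). The ratio of means, 0.595, was close to that of *Mt1*, 0.594. The span overlaps that of *1700034H15Rik* on the other strand, a transcript with 0.299 to 0.417 RPKM, and whether the counting used strand is not given in the sources used here.

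*Slc30a5* (chromosome 13, 101572802 to 101603295, - strand, 15 exons) stood at 2.28 and 2.08 RPKM at 2.8 mM and at 1.96 and 1.87 RPKM at 16.8 mM. Both HiGlu libraries were the lower ones, but the nearest libraries of the groups were closer together than the LoGlu replicates. The log2 fold change was -0.15 (SE 0.09, 95% interval -0.35 to 0.06, adjusted p = 0.219), close to the median of all transcripts. *Slc30a7* (chromosome 3, 115641891 to 115710324, - strand, 11 exons), which carries zinc into the Golgi, stood at 0.820 and 0.774 RPKM at 2.8 mM and at 0.963 and 0.926 RPKM at 16.8 mM, below the minimum for the test. Its HiGlu libraries were both the higher ones. With no minimum the log2 fold change was 0.16 (adjusted p = 0.113, 95% interval 0.03 to 0.28), and voom on reconstructed reads gave 0.25 (adjusted p = 0.0398, 95% interval 0.05 to 0.44).

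Among the importers, *Slc39a6*, known from estrogen-responsive breast cancer cells, stood at 1.51 and 1.67 RPKM at 2.8 mM and at 2.20 and 1.94 RPKM at 16.8 mM. Both HiGlu libraries were higher, and the nearest libraries of the groups were about as far apart as the replicates. The mean went from 1.59 ± 0.117 to 2.069 ± 0.184 RPKM (SD, n = 2), and the log2 fold change was 0.30 (SE 0.09, 95% interval 0.08 to 0.52, adjusted p = 0.0476). The call was at the edge of the threshold: without LoGlu replicate 1 the adjusted p was 0.267, without LoGlu replicate 2 it was 0.0605 and without HiGlu replicate 1 it was 0.157. Of 7 alternatives in which it missed the threshold, others were the fit without the variance trend (adjusted p = 0.0635), that with no minimum RPKM (0.13) and that with 1 entry per gene (0.0524).

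*Slc39a7* (chromosome 17, 34165214 to 34168489, - strand, 7 exons) stood at 47.7 and 40.0 RPKM at 2.8 mM and at 46.0 and 42.7 RPKM at 16.8 mM. The HiGlu libraries lay between the LoGlu libraries. The log2 fold change was 0.02 (SE 0.14, 95% interval -0.32 to 0.36, adjusted p = 0.913), so falls and rises within these bounds were not excluded. Its span overlaps a readthrough transcript annotated as *Gm20427*, whose reads may be shared with it. *Slc39a10* (chromosome 1, 46864389 to 46910891, - strand, 10 exons), an importer of the plasma membrane, stood at 0.397 and 0.352 RPKM at 2.8 mM and at 0.361 and 0.309 RPKM at 16.8 mM. *Slc39a14*, which also carries iron and manganese, stood at 0.591 and 0.538 RPKM at 2.8 mM and at 0.543 and 0.477 RPKM at 16.8 mM. The groups overlapped for both, neither reached the minimum, and with no minimum the log2 fold changes were -0.07 (adjusted p = 0.506) and -0.08 (adjusted p = 0.479).

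**Figure D3:**
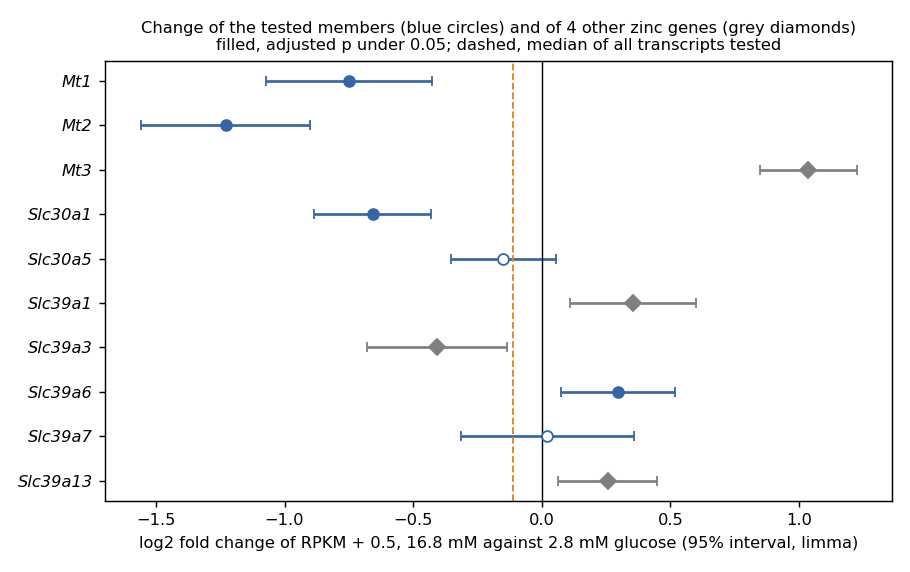
Log2 fold change of RPKM + 0.5, 16.8 mM against 2.8 mM glucose (horizontal axis), with 95% intervals from limma, for the 6 tested genes (blue circles) and 4 other zinc genes (grey diamonds). The grey genes were picked because they passed, and the 4 of 8 tested other zinc genes that did not pass are left out. Filled symbols passed an adjusted p of 0.05, and the dashed line is the median of all transcripts tested, -0.11. *Mt1*, *Mt2* and *Slc30a1* lie left of that median with their whole intervals, and *Mt3* lies far to the right.

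The median of all transcripts lay below 0, and insulin transcripts took a larger share of the reads at 16.8 mM. *Ins1* stood at 3113 and 3071 RPKM at 2.8 mM and at 10735 and 10364 RPKM at 16.8 mM (log2 fold change 1.77, adjusted p = 8.55e-05). *Ins2*, the more abundant insulin gene, had a log2 fold change of 0.75 (adjusted p = 0.00224). After quantile normalization neither passed (*Ins1* 0.54, adjusted p = 0.319, and *Ins2* 0.0). That scaling gives the same value to the same rank in every library. It therefore cannot show a change of a transcript whose rank stays the same, and does not judge the change of the insulin genes. With each library centred on its median, the log2 fold change was -1.14 for *Mt2* (adjusted p = 0.00696), -0.66 for *Mt1* (0.0187), -0.57 for *Slc30a1* (0.00389) and 0.38 for *Slc39a6* (0.0277). *Slc30a5* was then at -0.06 (adjusted p = 0.218) and *Slc39a7* at 0.11 (0.321). The direction of each of these 6 genes was the same with and without centring. Of the 2628 transcripts that passed, 31.9% were higher at 16.8 mM, whereas 44.1% were higher after centring and 42.3% after quantile normalization.

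**Figure D4:**
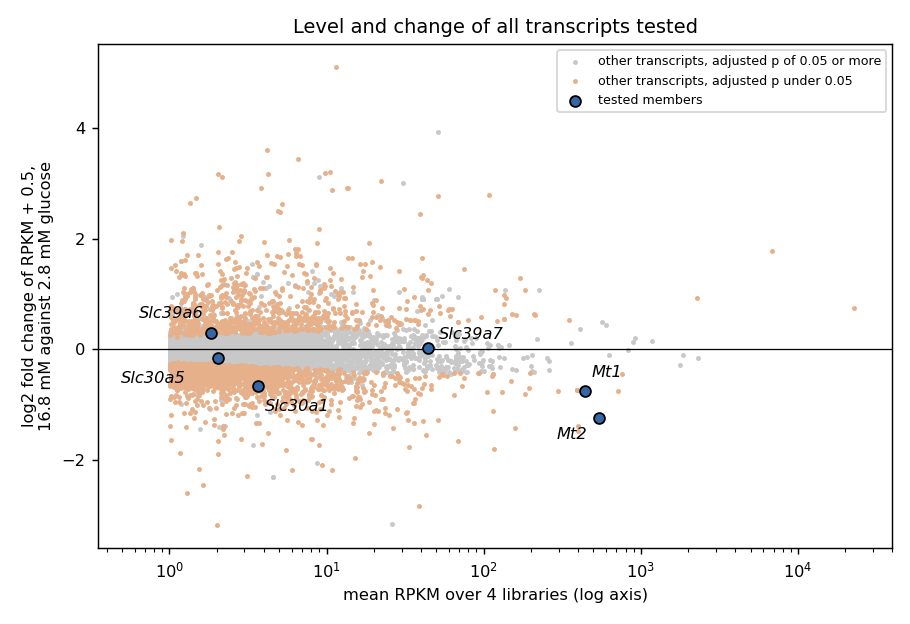
Mean RPKM over the 4 libraries (horizontal log axis) and log2 fold change, 16.8 mM against 2.8 mM glucose (vertical axis), of the 7867 transcripts tested, with adjusted p under 0.05 in orange, others in grey and the 6 tested genes in blue. *Mt1* and *Mt2* lie among the most abundant transcripts, and *Slc30a1*, *Slc30a5* and *Slc39a6* among those of a few RPKM.

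Levels can be compared between genes only per length, and the span scale lowers genes with long introns. On the scale of exon length, with all reads of the span taken as exonic, the mean over the 4 libraries was 1010 RPKM of exon for *Mt1* and 933 for *Mt2*. The next were *Slc39a7* with 64.3, *Slc30a5* with 22.9 and *Slc39a6* with 11.3. *Slc30a7* had 6.61, *Slc30a1* 4.52 and *Slc39a10* 3.00. The order of *Mt1* and *Mt2* followed the glucose group and the scale. At 2.8 mM *Mt2* (1210 and 1410) was close to *Mt1* (1180 and 1360) per exon length, with overlapping libraries, and at 16.8 mM *Mt2* (586 and 526) was below *Mt1* (786 and 716). On the span scale their pooled means stood in the opposite order. The libraries of *Slc39a7* (58.3 to 69.6), *Slc30a5* (20.9 to 25.5) and *Slc39a6* (9.30 to 13.6) did not overlap with those of their neighbours in the order. At 2.8 mM *Slc30a7* (6.22 and 5.87) and *Slc30a1* (5.79 and 5.54) were apart by less than the replicates of *Slc30a7* differed. At 16.8 mM *Slc30a7* (7.31 and 7.03) lay well above *Slc30a1* (3.54 and 3.20). These 2 genes stood in the opposite order on the span scale. *Slc39a14* is left out of this scale because its entry's span was not matched with certainty.

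**Figure D5:**
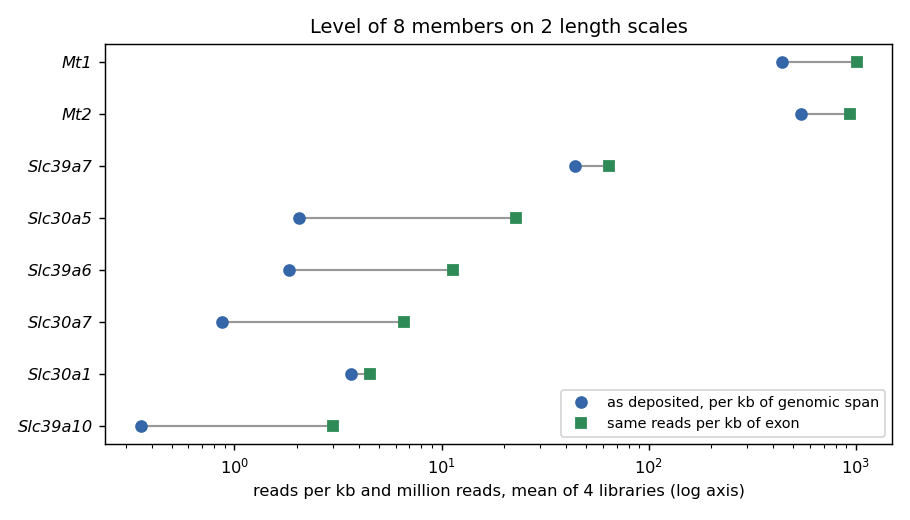
Mean level over the 4 libraries of 8 genes, as deposited per kilobase of genomic span (blue circles) and with the same reads per kilobase of exon (green squares), on a log axis of reads scaled by length and depth. *Slc30a1*, whose span is mostly exon, moves little, while *Slc30a5*, *Slc30a7*, *Slc39a6* and *Slc39a10* move most.

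Other genes of zinc handling were read from a list of 20, of which 8 were tested, 3 were higher and 1 was lower at 16.8 mM, where 10.7% of all transcripts tested were higher and 22.8% lower. Their median log2 fold change was 0.01. *Mt3*, a metallothionein best known from neurons, stood at 0.777 and 0.762 RPKM at 2.8 mM and at 2.19 and 2.02 RPKM at 16.8 mM. It rose in both HiGlu libraries, opposite in direction to *Mt1* and *Mt2*, and its log2 fold change was 1.04 (SE 0.08, adjusted p = 0.00038). These values rested on 70 and 61 reads at 2.8 mM and on 205 and 158 reads at 16.8 mM. *Mt3* reached the mean of 1 RPKM that the test required only through its HiGlu libraries, as both LoGlu libraries lay below 1 RPKM. With no minimum on RPKM it also passed, at the same log2 fold change (adjusted p = 0.0357). *Mt3* lies on chromosome 8 upstream of *Mt2*, and its window of 250 bases held no MRE match.

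The importers *Slc39a1*, at a log2 fold change of 0.36 (adjusted p = 0.037), and *Slc39a13*, with 0.26 (adjusted p = 0.0495), were higher, and *Slc39a3* was lower, with -0.41 (adjusted p = 0.0343). These 3 calls were weak. The span of *Slc39a13*, with a mean of 1.88 RPKM over all libraries, overlaps that of *Psmc3*, with 8.81 RPKM, so reads may be shared between them. *Slc39a13* missed the threshold without any 1 of the 4 libraries (adjusted p = 0.0842 to 0.241), *Slc39a1* without any but LoGlu replicate 1 (up to 0.148) and *Slc39a3* without LoGlu replicate 1 (0.159) or HiGlu replicate 2 (0.163). *Mt3*, which entered the test only through its HiGlu libraries, kept a log2 fold change of 0.99 to 1.08 whichever library was left out. Over the whole SLC39 family 3 of 6 tested genes were higher and 1 was lower. Over the SLC30 family 0 of 5 tested genes were higher and 1, *Slc30a1*, was lower. The families were not tested against each other, and over all transcripts 10.7% were higher and 22.8% lower. The SLC30 count depended on the setting. Of the 5 tested, 2 were lower after median centring or quantile normalization, where 26.7% and 27.4% of all transcripts were lower. With a replicate block 3 of 5 were lower, where 2835 of all 7867 transcripts tested were lower. With voom on reconstructed reads 1 was higher and 3 were lower of 7. In that fit 2344 of all 17310 transcripts were higher and 5022 were lower. *Mtf1* itself stood at 0.741 and 0.691 RPKM at 2.8 mM and at 0.750 and 0.720 RPKM at 16.8 mM. Its groups overlapped, and with no minimum its log2 fold change was 0.02 (adjusted p = 0.785). *Slc30a6*, the partner of *Slc30a5* in a transporter complex, stood at 0.381 and 0.385 RPKM at 2.8 mM and at 0.466 and 0.455 RPKM at 16.8 mM (with no minimum, log2 fold change 0.12, adjusted p = 0.103).

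Since metallothioneins also bind copper and *Slc39a14* also carries iron, lists for these metals were read in the same fit. Of 10 copper genes, 5 were tested and 0 passed with limma, against 33.4% of all transcripts, and 1 had an unadjusted p under 0.05. Voom on reconstructed reads called 4 of 10 copper genes, against 42.6% of all transcripts. Of 11 iron and manganese genes, 6 were tested, 2 were higher and 1 was lower, against 10.7% higher and 22.8% lower over all transcripts. *Ftl1*, the ferritin light chain, fell from 906 and 899 RPKM to 579 and 500 RPKM, a log2 fold change of -0.75 (adjusted p = 0.0061), the same size as that of *Mt1*. *Tfrc*, the transferrin receptor, had a log2 fold change of 0.42 (adjusted p = 0.0362), and *Ncoa4*, which delivers ferritin to lysosomes, had 0.30 (adjusted p = 0.0477). *Ftl1* passed whichever library was left out, *Ncoa4* missed the threshold without any 1 of them (adjusted p = 0.0966 to 0.22), and *Tfrc* missed it without HiGlu replicate 1 (0.159) or LoGlu replicate 2 (0.099).

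The depth was 50800000 to 60710000 reads per library. The libraries numbered 2 stood apart from those numbered 1 in the ribosomal precursor *Rn45s*, with 4066 and 3676 against 795 and 701 RPKM. Summed over 10 acinar markers they had 268 and 477 RPKM, against 93.1 and 228 RPKM. The acinar sum was also higher at 16.8 mM than at 2.8 mM in libraries of the same number. Of the 10 markers 0 passed the test, against 33.4% of all transcripts tested. None of the 10 was at 0 in all libraries. Within the libraries numbered 1 the log2 difference was -0.58 for *Mt1*, -1.04 for *Mt2*, -0.63 for *Slc30a1* and 0.43 for *Slc39a6*. Within those numbered 2 it was -0.92, -1.42, -0.69 and 0.17 in the same order of genes, so that each kept its direction in both. Among 7 beta cell markers 6 were higher at 16.8 mM, against 10.7% of all transcripts tested. The sum of the 7 was 22930 and 20580 RPKM at 2.8 mM and 43880 and 41130 RPKM at 16.8 mM. Most of it was insulin, with *Ins2* alone at 18136 and 15943 RPKM at 2.8 mM and at 30018 and 27396 RPKM at 16.8 mM. The sum thus mainly repeats the change of the insulin genes. Alpha cell markers summed to 2172 and 1665 RPKM at 2.8 mM and to 2114 and 1486 RPKM at 16.8 mM. Of these, 0 of 4 tested were called, against the same 33.4%. The part of acinar RNA, ribosomal RNA and cell composition in the results above was not tested.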

How the data were processed

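RNA-seq of whole mouse islets was analysed in 4 libraries, 2 at 2.8 mM and 2 at 16.8 mM glucose, grouped by the sample labels. RPKM values were deposited by the authors in 1 table of 33923 entries, 29217 of them RefSeq coding transcripts, 4561 non-coding transcripts and 145 lncRNAs. STAR, bedtools, DESeq and mm9 are named in the submitters' processing notes, with no versions given in the sources used here. For transcripts of under 20 reads, 75.9% to 76.8% of RPKM values corresponded to whole reads (tolerance 0.05) over the genomic span. Among those with several exons the share was 79.3% to 80.6% over the span and 5.3% to 7.9% over exons, so values were read as per span. Depth was recovered from the same steps, between 50800000 and 60710000 reads, and every SD rests on 2 libraries. Reconstructed reads are estimates, for the 87.3% of transcripts with a span in GENCODE vM1 on mm9.

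Identical entries of a symbol were used once, leaving 28047 transcripts. The 7867 whose mean reached 1 RPKM entered limma 3.58.1 (R 4.3.3) as log2(RPKM + 0.5). The fit used moderated variances with a trend, and p-values were adjusted by Benjamini-Hochberg with a threshold of 0.05. The added 0.5 understates the change of low genes. The table holds no counts, so no count test was the main test. In data simulated for this comparison, with 200 of 7867 transcripts changed, 99% of those were called and 5.3% of calls were unchanged transcripts. Whether these shares hold for differences of the size seen here, or where 33.4% of transcripts pass, was not tested. Python 3.11.15 with numpy 2.4.6, pandas 2.3.3, scipy 1.17.1 and matplotlib 3.10.9 served for the other steps and the figures.

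The genes and lists were chosen with earlier results of these data known. All 9 genes were described; of the zinc, copper and iron lists, those past the threshold whose groups did not overlap were named, with *Mtf1*, *Slc30a6*, *Ins1* and *Ins2* whatever their values. Cell type markers are given as sums and counts only. Alternatives were other scalings, filters, added constants, entries, thresholds, a replicate block, voom on reconstructed reads (mean of at least 20 reads) and leaving out each library. The libraries of each number alone were compared after seeing the data.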

Additional observations from a re-analysis of the deposited data

How the results depend on the processing

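*Mt2*, *Mt1* and *Slc30a1* stayed lower and *Slc39a6* stayed higher at 16.8 mM under every alternative run. *Slc30a1* passed under every alternative that gave a test. *Mt2* missed the threshold only with no minimum RPKM (adjusted p = 0.0518) and *Mt1* there (0.0831) and after quantile normalization. *Slc39a6* missed it in 7 alternatives. *Slc39a7* changed sign without LoGlu replicate 2 (-0.10) and without HiGlu replicate 1 (-0.03), its range when 1 library was left out being -0.10 to 0.15, never past the threshold. With no minimum RPKM 1 of the 9 genes, 2 other zinc genes and 1 iron or manganese gene passed, where 9.13% of 28047 transcripts did. In that setting the many transcripts near 0 enter the fit and the adjustment.

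With voom on reconstructed reads 7366 of 17310 transcripts passed, against 2628 with limma on RPKM, and 5 of the 9 genes, 8 other zinc genes, 4 copper genes and 6 iron or manganese genes. The cause of this difference was not tested. At an adjusted p of 0.01, 1191 transcripts passed. Leaving out each library in turn gave log2 fold changes of -1.34 to -1.12 for *Mt2*, -0.85 to -0.65 for *Mt1* and -0.72 to -0.60 for *Slc30a1*. For *Slc39a6* the range was 0.22 to 0.37 and for *Slc30a5* it was -0.20 to -0.09. The share of calls higher at 16.8 mM was 42.5% without LoGlu replicate 1 and 42.0% without HiGlu replicate 2, against 31.9% with all libraries. A group left with 1 library is assumed to vary like the other.

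The labels give the 2 pairs of libraries a shared number and nothing else that ties them. Deviations of same-numbered libraries from their group means correlated with r = 0.31 over 7867 transcripts and *Rn45s* and acinar markers also went with the number, but 2 pairs were too few to establish a pairing. With a replicate block 4067 of 7867 transcripts (51.7%) and 1 of 5 tested copper genes passed. Of the 6 tested genes among the 9, 3 passed, *Slc39a6* being lost (adjusted p = 0.061). Voom with the replicate block called 9985 of 17310 transcripts. Of the 9 genes 6 passed there, among them *Slc30a5* (adjusted p = 0.0153). That fit also called 10 of 16 other zinc genes, 5 of 10 copper genes and 9 of 10 iron or manganese genes. Groups of 2 libraries were too small for an outlier check, and *Mt3* rests on 61 to 205 reads per library, against 14862 or more for *Mt1* and *Mt2*.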
